A study of Mus musculus with 6 samples.

Results

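The complement cascade is a set of secreted proteases, their substrates and their inhibitors that tags cells, debris and synapses for removal. In the classical pathway the recognition molecule C1q activates the proteases C1r and C1s, which cleave C4 and C2 to build a convertase that splits C3, the protein on which all routes of activation converge. C1 inhibitor blocks C1r and C1s, and factor I cuts activated C3 and C4 into inactive forms. In the retina complement transcripts are known from microglia, Müller glia, vessels and pigment epithelium, and C3 is often used as a marker of reactive astroglia. The genes described here are the 9 rows of the deposited count table, of 55376 rows in all, that carry the symbols C1s1, C1ra, C1rl, C2, C3, C4a, C4b, Cfi and Serping1. They were chosen by name and encode proteases, substrates and inhibitors of the steps after C1q.

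The samples were whole retinas of 240-day-old mice, 3 WT and 3 Wfs1-KO (genotype Wfs1-/-), each from a different animal, and both genotypes carried the strain label C57x129. Per the study's methods, the mutant carries a targeted deletion of exon 8 of Wfs1, the gene of the endoplasmic reticulum protein wolframin. The methods also give the background as C57BL/6J. Their RNA-seq section gives the RNA source as enucleated eyes, whereas the labels, the paper's results and its tissue-collection methods give retina. The comparison asked which transcripts differed between mutant and control retinas, and p-values measure the spread between these 6 samples alone.

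Libraries held between 17916885 and 101334381 counts. Wfs1 had 61.4 to 69.9 CPM (counts for each 1e6 of the library, scaled with TMM factors) in the WT retinas and 0.900 to 11.5 CPM in the Wfs1-KO retinas. The Wfs1-KO replicate 2 library stood apart, with a mean Pearson correlation of 0.918 to the other 5 libraries across genes, against 0.962 to 0.971 for each of the others. It was the highest of the 6 retinas in 38.4% of the 18547 genes tested. Summed CPM of marker genes differed in this retina as well. The 13 blood and myeloid markers summed to 578 CPM in it, against 16.01 to 43.4 CPM in WT and 22.3 and 28.5 CPM in the other mutants, with 10 of the 13 highest in this library. The 10 fibroblast and connective tissue markers summed to 212 CPM, against 16.5 to 44.3 CPM in WT and 22.5 and 25.6 CPM in the other mutants, with 8 of 10 highest there. Fbln1 made up 161 CPM of this sum in Wfs1-KO replicate 2 and 23.2 CPM in WT replicate 3. Pdgfra went the other way and was lowest in Wfs1-KO replicate 2, at 7.81 CPM. The 10 pigment epithelium markers summed to 400 CPM, against 109 to 164 CPM in WT and 50.2 and 88.6 CPM in the other mutants, with 6 of 10 highest there. Ttr made up 234 CPM and Rgr 105 CPM of this sum in Wfs1-KO replicate 2, while Rpe65 and Lrat were not highest there. The 10 microglia markers summed to 175 CPM, against 60.2 to 70.5 CPM in WT and 64.8 and 81.5 CPM in the other mutants, with 8 of 10 highest there. The 10 Müller glia markers summed to 7857 CPM, against 5782 to 6462 CPM in WT and 5292 and 5601 CPM in the other mutants. Only 4 of these 10 were highest there. Apoe made up 3627 CPM of this sum in Wfs1-KO replicate 2 and 617 to 972 CPM in the other 5 retinas. Glul went the other way and was lowest in Wfs1-KO replicate 2, at 1949 CPM. The 16 markers of retinal neurons, which were all present as the tissue label requires, summed to 47165 CPM in this retina and to 62707 to 70723 CPM in the other 5. The 10 endothelium and pericyte markers summed to 210 to 266 CPM in WT and 282, 247 and 281 CPM in the mutant replicates, the 9 ciliary and iris markers in the table to 255 to 324 CPM in all 6, and the 10 lens markers to at most 3.26 CPM. No marker of these lists was at 0 in all 6 retinas. The part of these markers in the complement values was not tested, and the fitted differences below are therefore given with and without this retina. In whole tissue, a change in the number of cells of a type and a change in RNA per cell cannot be told apart.

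C4a and C4b are near copies, and their sequences are shown first because they set how far their counts can be read separately. C4 is the substrate of C1s, and its larger cleavage product binds covalently to the target surface. C4a, also known as the sex-limited protein for its male-restricted expression in some strains, lies 65.2 kb from C4b on chromosome 17 of mm10. The longest annotated transcripts of the pair, 5379 bases for C4b-201 and 5371 for C4a-207 (GENCODE M21), were 96.1% identical over 5367 aligned bases. Of all windows of 100 bases in the C4b transcript, 16.5% occurred unchanged in C4a, and of windows of 50 bases 35.2%. The ungapped stretch of 60 bases in which the pair differed most lay in exon 21 of both transcripts, at chr17:34735430-34735489 for C4b and chr17:34816086-34816145 for C4a, both on the minus strand. It held 13 differences, which are in capitals.
C4b: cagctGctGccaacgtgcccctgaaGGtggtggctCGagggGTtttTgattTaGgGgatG
C4a: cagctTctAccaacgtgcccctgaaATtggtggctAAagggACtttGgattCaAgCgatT
In C4b this stretch is coding sequence. The annotation lists C4a (ENSMUSG00000015451.16) as a processed transcript without a coding sequence, whereas the other 8 members are listed as protein-coding. The read length is not given in the sources used here, so the share of reads that could fall on either gene is not known.

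The table's exons of C2 were also shared. Of its 2783 exon bases, 64.3% lay within exons of other genes, 59.2% within Gm20547, a gene model that joins C2 with its neighbour Cfb and was listed at 0 counts in every retina, and 5.07% within Zbtb12 on the opposite strand. Counts of C2 may be too low for this reason. C1s1 shared 19.3% of its exon bases with Gm16567 on the opposite strand, and whether the counting used strand is not stated. C1s1 and C1ra each have a near copy on chromosome 6, C1s2 (95.9% identical over the aligned transcripts) and C1rb (97.98%), and 34.5% of the windows of 100 bases in C1ra occurred unchanged in C1rb. C1s2 and C1rb had at most 18 and 11 counts in a retina and were below the filter on low counts.

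In WT retinas transcripts of the 9 members were scarce. Per kilobase of exon, Serping1 was the most abundant member at 3.43 ± 0.74 RPKM (CPM per kilobase, SD, n = 3), followed by C4b at 1.77 ± 0.42 RPKM and Cfi at 0.937 ± 0.162 RPKM. The ranges of these 3 genes did not overlap, from 2.85 to 4.26, from 1.32 to 2.15 and from 0.819 to 1.12 RPKM. The other 6 members had WT means between 0.136 RPKM for C1s1 and 0.350 RPKM for C1rl, and neighbours in that order overlapped in range. The 9 genes together held 505 to 1731 counts in a WT library. For each 1e6 counts of the library this was 26.3, 18.4 and 28.2 counts in WT replicates 1, 2 and 3, and 49.9, 335 and 31.2 counts in the mutant replicates. All 3 mutant retinas were above all 3 WT retinas in this sum, but C4b was its largest part. Of the 9 members, 2 were by themselves higher in every mutant than in every WT retina, C4b and C3, as were 5.01% of all tested genes. Of the members other than C4b, Serping1 had the most counts in every retina. In mutant replicate 3 it had 6.93 CPM, within the WT range of 5.74 to 8.57 CPM. The order of the sum is therefore not read as a result about the members other than C4b. A sum without C4b was not taken. C4b made up 34.7% to 44.3% of the member counts in WT, and 55.4%, 68.3% and 45.6% in the mutant replicates.

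**Figure D1:**
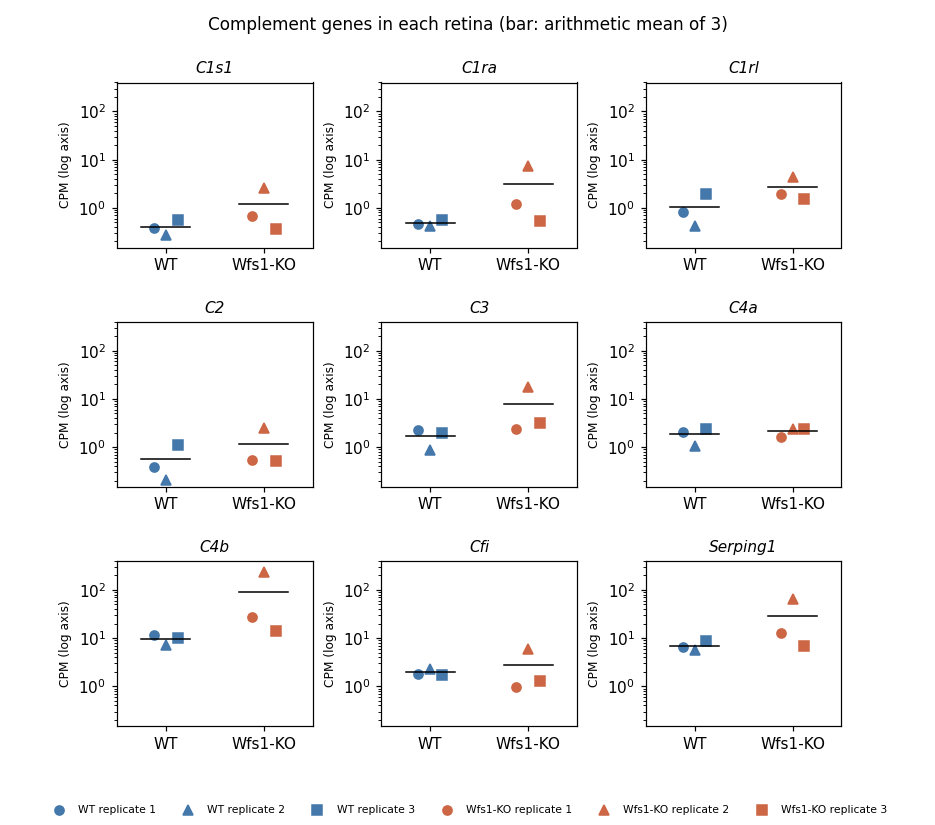
CPM of each of the 9 complement genes on a log axis, with 1 point per retina (WT blue, Wfs1-KO orange, marker shape for the replicate number) and a bar at the arithmetic mean of 3. Wfs1-KO replicate 2 (orange triangle) was the highest retina for all 9 genes, for C4a by only 1.003 times, and for 38.4% of all tested genes. The genotypes did not overlap for C3 and C4b.

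Across the genotype comparison none of the 9 members passed an adjusted p of 0.05 in the quasi-likelihood test of edgeR, Benjamini-Hochberg adjusted over 18547 genes, in which 0.0108% of all genes passed. All 9 were above the low-count filter and all 9 had a log2 fold change above 0, as had 52.8% of all tested genes. Their median log2 fold change was 1.62, and the median of all tested genes was 0.02. A log2 fold change of at least 1 was reached by 7 of 9 members and by 5.68% of all tested genes. At an unadjusted p under 0.05, C1ra, C3, C4b and Serping1 were higher in Wfs1-KO, 4 of 9, where 2.24% of all tested genes were. That number was 1, 0 and 2 without WT replicate 1, 2 or 3, and 4, 1 and 6 without Wfs1-KO replicate 1, 2 or 3. The number of all genes below this p, in either direction, moved as well. It was 314 of 19062, 303 of 18971 and 378 of 19289 without WT replicate 1, 2 or 3. Without Wfs1-KO replicate 1, 2 or 3 it was 805 of 19017, 995 of 19178 and 1003 of 19396. C3 and C4b, 2 of 9, were higher in every mutant than in every WT retina, as were 5.01% of all tested genes. With DESeq2, the tool that the study's methods name, C4b passed at an adjusted p of 0.0418, and 0.282% of all genes did.

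These values leaned on a single mutant retina. Wfs1-KO replicate 2 had the highest CPM of the 6 retinas for all 9 members, as for 38.4% of all tested genes. For C4a this rested on 2.392 against 2.384 CPM in Wfs1-KO replicate 3, which is close to a tie. For 8 of the 9, C4a being the exception, Wfs1-KO replicate 2 had at least 2 times the CPM of every other retina. This held for 9.82% of all tested genes. Without this retina the median of the members was 0.52, the median of all tested genes was below 0.01 in size, and 8 of the 9 members had a log2 fold change above 0, as had 49.9% of all genes. In this fit 0 of the 9 passed an adjusted p of 0.05 in edgeR's test, which 0.125% of all genes did, and at an unadjusted p under 0.05 C4b was higher (2.8% of all genes) and Cfi lower (2.39% of all genes). DESeq2 without this retina gave an adjusted p of 0.0194 for C4b, a threshold that 0.49% of all genes passed.

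**Figure D2:**
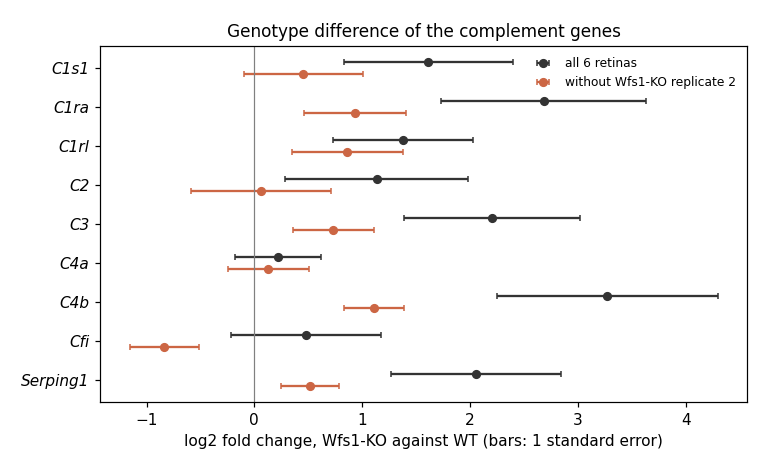
Log2 fold change of Wfs1-KO against WT for each member from edgeR, with 1 standard error (SE), over all 6 retinas (black) and without Wfs1-KO replicate 2 (orange). Leaving out this retina moved C4b from 3.27 to 1.11 and Cfi from 0.48 to -0.84, while C4a was 0.22 and 0.13.

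C1r and C1s are the serine proteases that C1q sets off. C1ra (ENSMUSG00000055172.10, chromosome 6 from 124512405 to 124523443, plus strand) encodes the first of them. It had 0.452, 0.420 and 0.568 CPM in WT replicates 1, 2 and 3, and 1.22, 7.41 and 0.545 CPM in Wfs1-KO replicates 1, 2 and 3. The first 2 mutant retinas were above all WT retinas, and the third was within the WT range. The log2 fold change was 2.68 (standard error, SE, 0.95, unadjusted p = 0.0242 and adjusted p = 0.979 from edgeR), and 0.94 (SE 0.47, adjusted p = 0.963 from edgeR) without Wfs1-KO replicate 2.

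C1s1 (ENSMUSG00000038521.17), whose protease is activated by C1r and cleaves C4 and C2, lies on the opposite strand, and with C1rl and C1ra it spans 49.2 kb of chromosome 6. It had 0.376, 0.273 and 0.568 CPM in WT and 0.679, 2.60 and 0.363 CPM in the mutant retinas. These values rested on 10 to 110 counts, and the 13 counts of WT replicate 2 allow 0.146 to 0.467 CPM (exact Poisson 95% interval, counting error only). Mutant replicate 3 lay within the WT range. The fitted difference of 1.62 on the log2 scale (SE 0.78, edgeR adjusted p = 0.979) became 0.45 (SE 0.55, adjusted p = 0.973 from edgeR) without Wfs1-KO replicate 2.

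C1rl (ENSMUSG00000038527.9) encodes a C1r-like protease. It had 0.813, 0.420 and 1.93 CPM in WT and 1.98, 4.40 and 1.54 CPM in the mutants, so that WT replicate 3 reached above mutant replicate 3. Its spread in WT was the second largest of the members, with a coefficient of variation of 74.3%. On the log2 scale the difference was 1.38 (SE 0.65), and 0.86 (SE 0.51) without Wfs1-KO replicate 2, with adjusted p-values of 0.979 and 0.966 from edgeR.

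Serping1 encodes C1 inhibitor, the serpin that inactivates C1r and C1s, and lies on chromosome 2 from 84765387 to 84775444 (ENSMUSG00000023224.12, minus strand). It had 6.40, 5.74 and 8.57 CPM in WT and 12.5, 66.4 and 6.93 CPM in the mutant retinas. Mutant replicates 1 and 2 were above all WT retinas, and replicate 3 was between them. On the log2 scale the difference of Serping1 was 2.06 (SE 0.79, unadjusted p = 0.0342 and adjusted p = 0.979 from edgeR), and 0.52 (SE 0.27, adjusted p = 0.963 from edgeR) without Wfs1-KO replicate 2.

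The inhibitor was also set against its target proteases. Per kilobase, Serping1 exceeded the sum of C1ra and C1s1 by 11.5, 12.3 and 11.2 times in WT and by 9.78, 9.82 and 11.3 times in the mutant replicates, a pairing that was chosen after the values were seen. Mutant replicates 1 and 2 were below all WT retinas in this ratio and replicate 3 was within the WT range, and C1ra itself was 6.06 times higher in mutant replicate 2 than in replicate 1. In WT replicates 1, 2 and 3 the ratio rested on only 30, 20 and 10 counts of C1ra and 25, 13 and 10 of C1s1. Counting error was not carried into it, so these differences may lie within that error. The ratio of Serping1 to C1s1 alone was 25.2, 31.2 and 22.4 in WT and 27.4, 37.8 and 28.3 in the mutants, highest in mutant replicate 2. The ratio of C1ra to C1s1 ran from 1.00 to 1.54 in WT, with 1.80, 2.85 and 1.502 in the mutants.

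C2 encodes the protease subunit of the classical C3 convertase and lies 39.1 kb beyond C4a on chromosome 17. It had 0.391, 0.210 and 1.08 CPM in WT and 0.534, 2.44 and 0.522 CPM in the mutants, from 10 to 103 counts. Apart from Wfs1-KO replicate 2, the mutant retinas lay inside the WT range, which was the widest of all members relative to its mean (coefficient of variation 81.8%). The fitted difference of 1.13 on the log2 scale (SE 0.85, edgeR adjusted p = 0.979) became 0.06 (SE 0.65, adjusted p = 0.996 from edgeR) without that retina.

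C4b (ENSMUSG00000073418.4, chromosome 17 from 34728380 to 34743882, minus strand) showed the largest difference of the members. It had 11.5, 7.10 and 9.93 CPM in WT and 27.2, 236 and 14.0 CPM in Wfs1-KO replicates 1, 2 and 3, or 9.53 ± 2.25 CPM in WT and 92.3 ± 124 CPM in the mutants (SD, n = 3 each). Every mutant retina was above every WT retina. Against the WT mean, the mutant replicates were higher by 2.85, 24.7 and 1.47 times. The log2 fold change was 3.27 (SE 1.02, unadjusted p = 0.014 and adjusted p = 0.979 from edgeR), and 1.11 (SE 0.28, unadjusted p = 0.0023 and adjusted p = 0.379 from edgeR) without Wfs1-KO replicate 2. DESeq2 gave a log2 fold change of 3.27 (SE 0.85) with all 6 retinas and 1.11 (SE 0.28) without that retina, and in both fits C4b was the only member past its threshold.

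C4a did not follow its neighbour. It had 2.06, 1.05 and 2.38 CPM in WT and 1.60, 2.39 and 2.38 CPM in the mutant retinas, and the genotypes overlapped throughout. Wfs1-KO replicate 2 exceeded the next highest retina by 1.003 times for C4a and by 8.67 times for C4b. The log2 fold change of C4a was 0.22 (SE 0.40, adjusted p = 0.979 from edgeR), and 0.13 (SE 0.38) without Wfs1-KO replicate 2. Because C4a is known for expression limited to males in some strains, the animals were compared by Xist and the Y-linked Ddx3y. WT replicate 3 had 4 counts of Xist and 1137 of Ddx3y, while the other 5 retinas had at least 10583 counts of Xist and at most 2 of Ddx3y. By these counts WT replicate 3 was the only male, so sex was not balanced between the genotypes. No fit here had a term for sex, and its part in the values of any member was not tested. The C4a level of WT replicate 3, 2.38 CPM, equalled that of mutant replicate 3 within the printed digits.

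As a share of both genes' counts, C4b made up 84.9%, 87.1% and 80.7% in WT, with exact binomial 95% intervals of 82.3% to 87.1%, 83.4% to 90.3% and 74.8% to 85.7%. In the mutants the share was 94.4% (93.6% to 95.2%), 99.0% (98.8% to 99.2%) and 85.5% (82.7% to 88.0%) for replicates 1, 2 and 3. Mutant replicates 1 and 2 were thus above the intervals of all WT retinas, and mutant replicate 3 overlapped them. These intervals cover counting error only.

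C3 (ENSMUSG00000024164.15, chromosome 17 from 57203970 to 57228136, minus strand) encodes the protein whose cleavage starts opsonisation. It had 2.21, 0.883 and 1.93 CPM in WT and 2.41, 17.5 and 3.18 CPM in Wfs1-KO replicates 1, 2 and 3. The genotypes did not overlap, but mutant replicate 1 was close to WT replicate 1. For C3 the log2 fold change was 2.20 (SE 0.81, unadjusted p = 0.0292 and adjusted p = 0.979 from edgeR), and 0.73 (SE 0.37, unadjusted p = 0.0776 and adjusted p = 0.963 from edgeR) without Wfs1-KO replicate 2. Unlike C1ra, C4b and Serping1, for which mutant replicate 1 was above replicate 3, C3 was higher in replicate 3 than in replicate 1.

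Promoters of 4 members, C1rl, C1ra, C1s1 and C3, were found by symbol among the RefSeq promoters of GRCm38.p6. That of C3, the member of this group with no overlap between genotypes, is printed as the 250 bases before the start at chr17:57228137-57228386 on the minus strand, with a match to a C/EBP motif in capitals.
C3: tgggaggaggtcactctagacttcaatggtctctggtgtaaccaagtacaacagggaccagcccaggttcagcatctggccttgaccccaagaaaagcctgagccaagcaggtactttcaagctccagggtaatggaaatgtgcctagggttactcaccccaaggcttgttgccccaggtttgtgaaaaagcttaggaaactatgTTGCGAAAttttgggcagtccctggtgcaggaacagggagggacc
The motifs searched on both strands were TTGCNNAA for C/EBP and TTCNNNGAA for STAT, and by longer patterns those of NF-kB and of interferon-stimulated elements. In the same window 9.56%, 7.02%, 4.65% and 2.98% of 32851 promoters held a match. The C3 window held 1 match, to C/EBP, from 45 bases before the start. The windows of C1rl and of 1 of the 2 C1s1 starts held a C/EBP match as well, 243 and 242 bases before the start, and that of C1ra held none of these motifs. The C/EBP match in C3 and those in C1rl and C1s1 did not overlap another motif searched.

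Cfi (ENSMUSG00000058952.12) encodes factor I, the protease that degrades activated C3 and C4, and lies on chromosome 3 from 129836737 to 129875332 on the plus strand in the table's annotation. It had 1.81, 2.33 and 1.70 CPM in WT and 0.951, 5.99 and 1.27 CPM in Wfs1-KO replicates 1, 2 and 3. Mutant replicates 1 and 3 were below all WT retinas, and mutant replicate 2 was above them. The direction of its log2 fold change turned with that retina, from 0.48 (SE 0.69, adjusted p = 0.979 from edgeR) to -0.84 (SE 0.32, unadjusted p = 0.0252 and adjusted p = 0.821 from edgeR).

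Set against its substrate, Cfi was lower in all 3 mutants. The ratio of Cfi to C3 per kilobase was 2.02, 6.53 and 2.18 in WT and 0.976, 0.844 and 0.988 in the mutant replicates, and the genotypes did not overlap, Wfs1-KO replicate 2 included. This ratio was chosen after the values were seen and is given without a test. Its divisor C3 was already higher in every mutant than in every WT retina, while Cfi itself was above all WT retinas in Wfs1-KO replicate 2. The ratio of C4b to C3 overlapped between genotypes, with 4.98, 7.68 and 4.92 in WT and 10.8, 12.8 and 4.22 in the mutants.

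**Figure D3:**
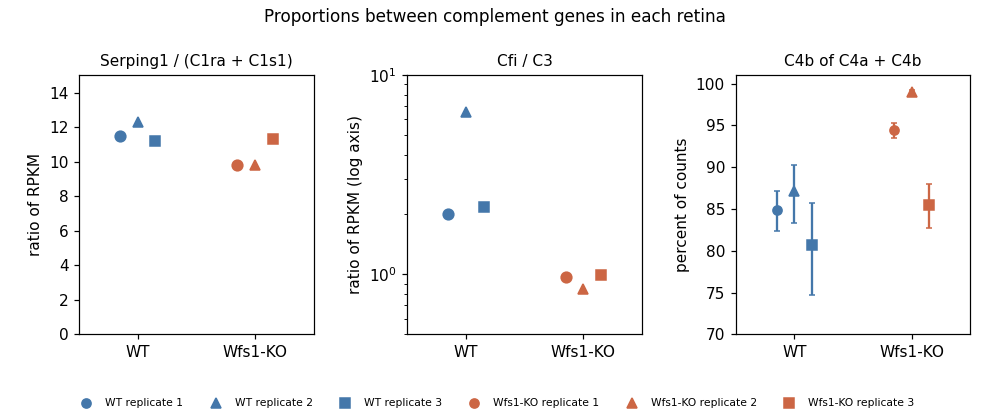
Serping1 to the sum of C1ra and C1s1 (left, ratio of RPKM), Cfi to C3 (middle, ratio of RPKM on a log axis) and C4b as a percent of C4a plus C4b counts (right, exact binomial 95% intervals), with 1 point per retina. The left ratio stayed between 9.78 and 12.3 in all 6 retinas, the middle ratio was below 1 in the 3 mutants and above 2 in WT, and the C4b share was above the WT intervals in mutant replicates 1 and 2 only. The left and middle points carry no interval for counting error.

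Patterns over the 6 retinas were compared as the root mean square difference of log2 CPM after centring each gene on its mean. Among the members the smallest differences were 0.23 between C1ra and Serping1, 0.26 between C1s1 and Serping1 and 0.35 between C1ra and C4b, and the largest was 1.56 between C4a and C4b. Of all tested genes with a mean of at least 1 CPM, those nearest to C4b were H2-Aa (0.30), C1ra (0.35), Lcn2 (0.39), Ifitm2 (0.39) and A2m (0.40). Those nearest to C3 were Gm15327 (0.15), Nupr1 (0.26), Gm42636 (0.27), Gm2000 (0.34) and Wfdc2 (0.34). Those nearest to Serping1 were Rab38 (0.12), Gm31282 (0.13), Pcolce (0.16), C1ra (0.23) and Gng8 (0.25). Because Wfs1-KO replicate 2 leads all 3 profiles, the choice favours genes that are high in it, and H2-Aa, C1ra, Ifitm2, Gm42636, Gm2000, Gm31282 and Gng8 had a mean below 1 CPM over the other 5 retinas.

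The rest of the cascade was read from 57 further genes grouped by role. Of these 31 passed the low-count filter, and 0 passed an adjusted p of 0.05 in either direction with edgeR or DESeq2. At an unadjusted p under 0.05 in edgeR, 1 was higher in Wfs1-KO (2.24% of all tested genes) and 1 was lower (0.566% of all tested genes). Their median log2 fold change was 0.16, and 0.09 over the 35 genes tested without Wfs1-KO replicate 2.

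Of the initiators, the subunits of C1q were high in a single mutant retina. C1qa had 7.10 to 10.5 CPM in WT and 10.9, 80.5 and 6.93 CPM in Wfs1-KO replicates 1, 2 and 3. In edgeR its difference of 1.95 (SE 0.87) on the log2 scale became 0.07 (SE 0.25) without replicate 2. C1qb and C1qc had 1.56 and 1.07, and 0.00 and 0.06 without that retina. The adjusted p of each was 0.979 in edgeR. C1q is known to be made by microglia and macrophages. The summed microglia, blood and myeloid, and fibroblast markers given above were also highest in Wfs1-KO replicate 2, and their part in these values was not tested.

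In the lectin pathway, in which collectins and MASP proteases take the place of C1q, C1r and C1s, Masp2 was the gene lower in Wfs1-KO. It had 1.79, 1.05 and 1.02 CPM in WT and 0.311, 0.355 and 0.500 CPM in the mutants, without overlap between genotypes (3.94% of all tested genes were lower without overlap). For Masp2 the log2 fold change was -1.75 (SE 0.43, unadjusted p = 0.0046 and adjusted p = 0.979 from edgeR), and -1.74 (SE 0.45) without Wfs1-KO replicate 2. Of the exon bases of Masp2, 56.3% lay within exons of Tardbp on the opposite strand, so reads of Tardbp could bear on its counts. Colec11, a collectin, was the gene with the higher level, with 0.211, 0.210 and 0 CPM in WT and 0.602, 0.710 and 0.363 CPM in the mutants (log2 fold change 1.79, SE 0.76, unadjusted p = 0.0482 and adjusted p = 0.979 from edgeR, and 1.54, SE 0.72, without Wfs1-KO replicate 2). The 0 of WT replicate 3 allows up to 0.170 CPM at 3 counts. Colec11 had 14, 10 and 0 counts in WT and 62, 30 and 16 in the mutants. It passed the low-count filter through the mutants alone, so its p-value is not read as support for a difference. Masp1 had a log2 fold change of -0.23 (SE 0.56), and -0.10 (SE 0.64) without Wfs1-KO replicate 2. Mbl1, Mbl2 and Fcnb were listed at 0 in all 6 retinas.

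Of the alternative pathway, Cfb and Cfd were scarcely detected, whereas Cfp was detected in every retina. Cfb, whose protease is the counterpart of C2, had at most 0.341 CPM, and 81.6% of its exon bases lay in Gm20547, as for C2. It was not tested with all 6 retinas, and without Wfs1-KO replicate 2 its log2 fold change was 2.61 (SE 1.01, unadjusted p = 0.026 and adjusted p = 0.829 from edgeR). Cfb had 7, 0 and 0 counts in WT and 29, 3 and 15 in Wfs1-KO replicates 1, 2 and 3. Without replicate 2 it passed the low-count filter through the other mutants alone. Its p-value is therefore not read as support for a difference. Cfd had at most 0.450 CPM. Properdin (Cfp), which stabilises the alternative convertase, had 7.15 to 10.7 CPM in WT and 6.90, 13.9 and 6.65 CPM in the mutants, with log2 fold changes of 0.04 (SE 0.34) and, without Wfs1-KO replicate 2, -0.40 (SE 0.21). Of the 7 terminal components, C8g alone was tested (log2 fold change 0.30, SE 0.28, adjusted p = 0.979 from edgeR, and 0.19, SE 0.28, without Wfs1-KO replicate 2), and C5, encoded by Hc, had at most 0.237 CPM.

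Among the other regulators, clusterin (Clu), an inhibitor of the terminal complex, had 587 to 813 CPM in WT and 604, 1733 and 514 CPM in the mutants, with log2 fold changes of 0.48 (SE 0.46) and, without Wfs1-KO replicate 2, -0.29 (SE 0.16). Cd59a, which blocks the membrane attack complex, had 60.4 to 66.5 CPM in WT and 79.3, 315 and 23.3 CPM in the mutants, so that the mutant retinas lay on both sides of the WT range. Its difference was 1.14 (SE 0.79) on the log2 scale, and -0.30 (SE 0.37) without that retina. The mouse C3b regulator Cr1l had a log2 fold change of 0.23 (SE 0.22), and 0.22 (SE 0.21) without that retina. Cd55, which speeds the decay of convertases, had 0.02 (SE 0.49), and -0.39 (SE 0.49) without it. Cd46, a cofactor for factor I, had 15.6 to 29.5 CPM in WT and 14.1, 24.1 and 14.9 CPM in the mutants (log2 fold change -0.33, SE 0.31), and -0.63 (SE 0.24, unadjusted p = 0.0229 and adjusted p = 0.813 from edgeR) without Wfs1-KO replicate 2.

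Of the receptors, C3ar1, which binds the C3a fragment, had 0.391 to 0.925 CPM in WT and 0.573, 3.39 and 0.182 CPM in the mutants. Its log2 fold change was 1.12 (SE 0.98), and -0.67 (SE 0.61) without Wfs1-KO replicate 2. C5ar1 had at most 0.332 CPM and was not tested. Itgam, a subunit of complement receptor 3, had 0.227 to 0.672 CPM in WT and 1.01, 4.21 and 0.363 CPM in the mutants (log2 fold change 1.83, SE 0.88, adjusted p = 0.979 from edgeR), and a log2 fold change of 0.40 (SE 0.56) without Wfs1-KO replicate 2.

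**Figure D4:**
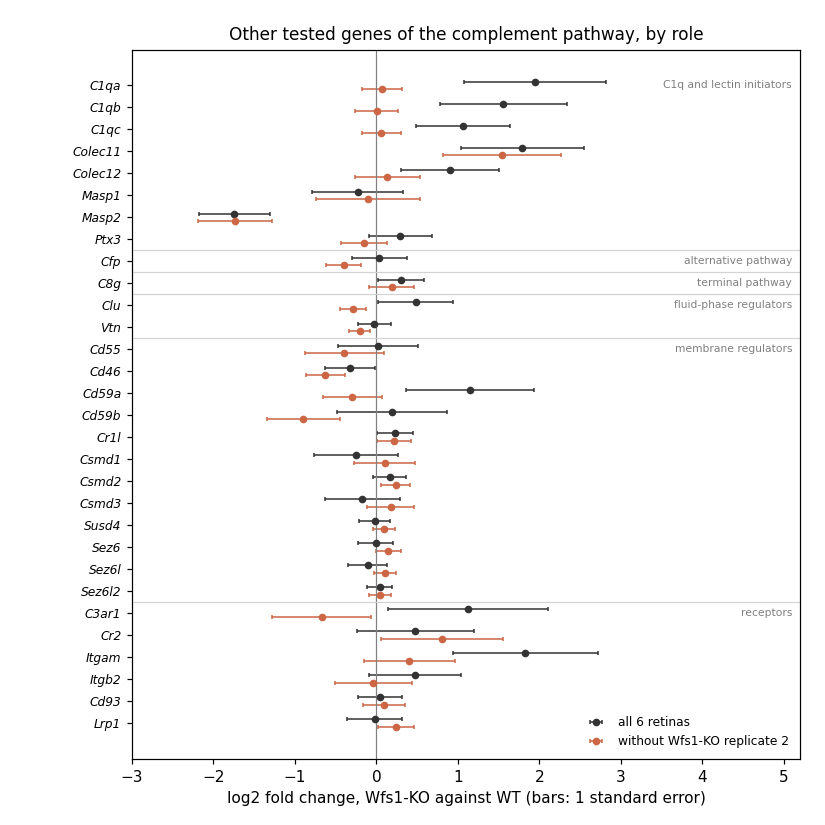
Log2 fold change of Wfs1-KO against WT with 1 SE for tested pathway genes outside the 9 members, grouped by role, over all 6 retinas (black) and without Wfs1-KO replicate 2 (orange). Masp2 was near -1.75 in both fits, whereas C1qa moved from 1.95 to 0.07.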

How the data were processed

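Retinal RNA of 3 WT and 3 Wfs1-KO mice was sequenced. Per the labels, the authors used Trimmomatic 0.39, STAR 2.5.3a on mm10 and featureCounts 1.6.4, while the paper's methods give other versions. They deposited raw counts per gene on exons, without normalization, beside each gene's exon length. Columns were matched to samples by name, with C (control) read as WT and W as Wfs1-KO. Another 2 sample columns, with no counterpart among the samples, were left out.

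The test on counts was that of edgeR 4.0.16 under R 4.3.3 (quasi-likelihood fit, TMM, default low-count filter, Benjamini-Hochberg adjustment at 0.05), with genotype as the only term. The standard error is the fold change divided by the square root of F. The floor of 3 counts equals 0.0291 to 0.170 CPM, for counting error only. Alternatives used DESeq2 1.42.0 and limma-voom (limma 3.58.1). Profiles were taken on log2 CPM (prior count 2). No pair of replicate libraries agreed within sampling noise. The fit was tested on simulated data.

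The members and lists were chosen with earlier results of these data known. Named genes are the 9 members, listed main components of the pathway, other pathway genes with an unadjusted p under 0.05 with all retinas or without Wfs1-KO replicate 2, and the 5 nearest profiles of C4b, C3 and Serping1. Gene identifiers came from GENCODE M21, whose spans of C2, C4a and Cfi differ from the table's. Itgam, C8g, Mbl1, Mbl2 and Fcnb, from the same lists, were named after their values were seen. A pathway gene of these lists is not reported here by name, but is in their counts.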

Additional observations from a re-analysis of the deposited data

How the results depend on the processing

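With DESeq2 the count of members past the threshold was 1, C4b, on all 6 retinas, and 1 without Wfs1-KO replicate 2, against 0 in edgeR. It was 0 with limma-voom, with RLE or upper-quartile factors, without a filter, with at least 10 counts in every retina and with each retina left out in turn. The count of further pathway genes past the threshold was 0 under all alternatives run. With each retina left out in turn in edgeR, the median of the members ranged from 0.52, without Wfs1-KO replicate 2, to 2.06, without WT replicate 3, and it was 0.51 with DESeq2 without Wfs1-KO replicate 2. The log2 fold change of Cfi was -0.20 with limma-voom, -0.84 without Wfs1-KO replicate 2 and -0.84 with DESeq2 on the same 5 retinas, and that of C4a was -0.066 without WT replicate 2. Over the retinas left out in turn, C4a ran from -0.066 to 0.42 and Cfi from -0.84 to 0.89. The cause was not tested. The other 7 members kept a value above 0 in all 14 alternatives, and the value of C4b ran from 1.11 to 3.78 with adjusted p-values from 0.0194 to 0.9999. With the replicate number as a block, C4b had 2.08 (SE 0.995, adjusted p = 0.992 from edgeR), 0 members passed, 0 had an unadjusted p under 0.05 against 4, and 1 of all genes passed against 2. Of all 18547 genes, 310 had an unadjusted p under 0.05 in either direction with the block and 521 without it. Same-numbered retinas are different mice, with correlations of -0.23, -0.11 and 0.08 between their deviations, and 0 of 6 retinas correlated best with its own number.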
